A study of Mus musculus with 16 samples.

Results

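Genes of adenosine signalling and of DNA methylation were examined in the hippocampus of mice lacking Kcna1, a voltage-gated potassium channel subunit, and of wild type mice. The 10 genes were chosen by name for proposed roles in the action of the ketogenic diet, and each matched 1 of the 49315 rows of the count table. They are the receptor genes Adora1, Adora2a and Adora2b, the ectoenzyme genes Entpd1 and Nt5e, the transporter gene Slc29a1, the clearance enzyme genes Adk and Ada, and the DNA methyltransferase genes Dnmt1 and Dnmt3a. All 10 were among the 17469 genes with enough counts to be tested. Total RNA was sequenced from 16 mice in 4 groups of 4, which were wild type under standard diet, Kcna1 knockout under standard diet, wild type under ketogenic diet and Kcna1 knockout under ketogenic diet. Mice without Kcna1 have spontaneous seizures. A ketogenic diet supplies mostly fat and little carbohydrate. Age, sex, strain, duration of the diet and the knockout allele were not given in the sources used here, and nothing in them says how the 16 mice were related or housed.

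Adenosine is formed outside cells when Entpd1 (CD39) removes phosphates from ATP and ADP and Nt5e (CD73) cleaves the resulting AMP. Slc29a1 (ENT1) carries adenosine across the cell membrane in either direction, and inside the cell Adk (adenosine kinase, which in the adult brain is mainly an astrocyte enzyme) turns it back into AMP, while Ada (adenosine deaminase) turns it into inosine. The receptor encoded by Adora1 couples to inhibitory G proteins and damps transmitter release and neuronal firing. The receptors encoded by Adora2a and Adora2b couple to stimulatory G proteins, and Adora2a is best known from the striatum. Adenosine is also a product of DNA methylation: S-adenosylhomocysteine, left over when Dnmt1 (the maintenance enzyme) or Dnmt3a (a de novo enzyme) methylates DNA, is split into homocysteine and adenosine, and its build-up inhibits methyltransferases. This chain has been proposed as a route by which the ketogenic diet acts on seizures.

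Levels are given as CPM, counts scaled to the size of the library, with TMM, a factor that corrects for differences in library composition. Total counts ranged from 13440230 to 22309504 per library. Several libraries stood apart. Kcna1 measured 107 to 130 CPM in the 8 wild type libraries and 43.4 to 47.2 CPM in 7 knockout libraries, but 82.0 CPM in the library labelled knockout KC888LL, under standard diet. The 16 listed microglial genes summed to 726 CPM in KC872RL and 730 CPM in KC873RR, both knockout under standard diet, and to 305 to 369 CPM in the other 14 libraries. These 2 libraries, with KC890RL and KC846L of wild type, were also the 4 with Y-linked Ddx3y above 10 CPM, and sex was not in the labels. No knockout library under ketogenic diet was among them, so the diet comparison in the knockout was unbalanced for Ddx3y. Fits were therefore repeated without each library, without KC872RL and KC873RR together, and without the 4 libraries with Ddx3y. In bulk tissue, fewer cells of a type and less RNA per cell cannot be told apart. The hippocampal origin was checked against listed marker genes: the dentate granule cell list summed to 255 to 543 CPM, the CA1 list to 312 to 558 CPM and the CA3 list to 399 to 584 CPM, with no gene of the 3 lists at 0 in any library.

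The regions upstream of Adora1, Adk and Dnmt1 are shown because these 3 genes came closest to the threshold in the comparisons below and because CG dinucleotides are the substrate of the methyltransferases. DNA methylation itself was not measured. The sequences are the 250 bases before a RefSeq transcription start on GRCm38.p6, read 5′ to 3′ on the strand of the gene, with each CG in capitals. They are chr1:134235458-134235707 on the minus strand for Adora1, chr14:21075902-21076151 on the plus strand for the downstream of 2 Adk starts, and chr9:20952980-20953229 on the minus strand for the second of 3 Dnmt1 starts. None of the 3 windows overlapped an annotated exon in GENCODE M21.
Adora1: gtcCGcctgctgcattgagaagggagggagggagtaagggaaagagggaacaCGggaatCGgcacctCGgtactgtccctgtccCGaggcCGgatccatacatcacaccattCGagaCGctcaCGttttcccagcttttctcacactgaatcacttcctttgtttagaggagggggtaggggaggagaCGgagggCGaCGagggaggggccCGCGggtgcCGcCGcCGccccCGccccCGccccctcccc
Adk: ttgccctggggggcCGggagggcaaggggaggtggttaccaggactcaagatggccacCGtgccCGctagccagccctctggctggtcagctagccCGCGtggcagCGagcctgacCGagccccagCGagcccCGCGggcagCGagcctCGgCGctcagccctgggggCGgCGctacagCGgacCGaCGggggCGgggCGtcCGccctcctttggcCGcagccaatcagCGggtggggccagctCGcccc
Dnmt1: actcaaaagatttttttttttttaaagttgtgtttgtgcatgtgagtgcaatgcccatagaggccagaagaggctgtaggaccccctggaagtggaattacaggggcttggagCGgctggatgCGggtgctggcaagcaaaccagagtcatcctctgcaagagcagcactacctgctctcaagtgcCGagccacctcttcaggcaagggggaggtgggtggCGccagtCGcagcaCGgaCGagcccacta

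These windows held 19 CG in Adora1, 24 in Adk and 7 in Dnmt1. The window before the third Dnmt1 start held 26 CG and was dense in CG by the definition given next. It is not printed because 166 of its bases lie in an annotated Dnmt1 exon, and the first Adk window was left out for the 185 bases it shares with exons of Ap3m1. At the most upstream listed start, 9 members had an entry, and 6 of the 9 windows were dense in CG, defined as at least 50% G and C with an observed to expected CG ratio of at least 0.6. They were those of Adora1, Adora2b, Entpd1, Nt5e, Adk and Dnmt3a. Of all 27025 genes in the table, 31.4% had such a window, and the median gene held 6 CG against 2 in Dnmt1 and 38 in Dnmt3a at that start. The cAMP response element, searched on both strands as TGACGTCA, which reads the same on either strand, was in none of the 23 member windows and in 1.60% of all genes at the most upstream start. Adora2a was without an entry. Counts are per gene, so the starts, which give rise to different Adk transcripts, were not measured separately.

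The members differed widely in level per length of exon. Adora1 (ENSMUSG00000042429, chromosome 1, 134199223 to 134235431, minus strand, GRCm38) was the highest, at 45.2 CPM per kb over the 16 libraries. Dnmt1 (8.40 CPM per kb) and Dnmt3a (7.53 CPM per kb) came next, with ranges over libraries that overlapped. Adk followed at 4.79 CPM per kb, Slc29a1 at 3.85, Adora2b at 2.23 and Entpd1 at 1.80 CPM per kb, and neighbours in this order overlapped in range apart from Dnmt3a above Adk and Slc29a1 above Adora2b. Nt5e measured 0.763 CPM per kb and lay below Entpd1 in every library. Adora2a, at 0.554 CPM per kb, and Ada, at 0.380 CPM per kb, were the lowest, and their ranges overlapped each other and that of Adora2a also reached past Nt5e. With the longest transcript as the length, 6 of the 10 genes kept their rank. Ada rested on 3 to 19 counts per library and Adora1 on 3384 to 6501, so the values of Ada carry far more counting error.

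**Figure D1:**
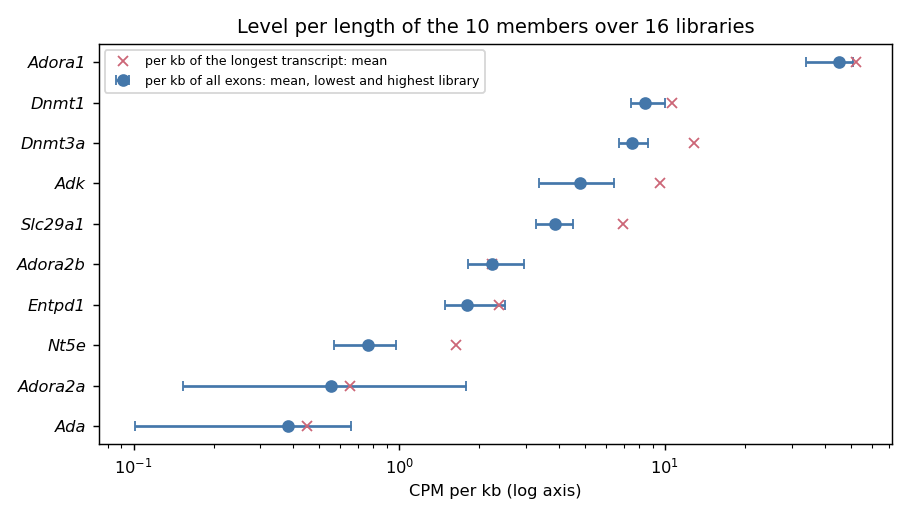
Mean level of each member in CPM per kb on a log axis over 16 libraries; circles use the length of all exons, with bars from the lowest to the highest library, and crosses use the longest transcript. Adora1 stands above all others at 45.2 CPM per kb, and Adora2a and Ada are lowest.

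With all 16 libraries, none of the 10 members passed an adjusted p of 0.05 in any of 7 comparisons (edgeR, p-values adjusted over all tested genes). These comprised the genotype effect (knockout against wild type) for each diet and over their average, the diet effect (ketogenic against standard) within each genotype and over their average, and the interaction of genotype and diet. The share of all tested genes called was 0.00572% for knockout against wild type under standard diet, 0.0172% for the same under ketogenic diet, 1.16% for the diet in the knockout, 0.0114% for the diet in wild type and 0% for the interaction. It was 0.0973% for the genotype and 0.899% for the diet when averaged over the other factor. At these shares few or no calls among 10 genes are no result about the members. The number of members at an unadjusted p under 0.05 (edgeR) was 3 for knockout against wild type under standard diet, against 14.3% of all genes, 1 under ketogenic diet (9.22%), 7 for the diet in the knockout (16.9%), 0 for the diet in wild type (5.46%) and 4 for the interaction (7.48%). For the averaged comparisons it was 1 for the genotype (15.8%) and 3 for the diet (14.4%). DESeq2 called 2 members for the diet in the knockout, where it called 3.88% of all genes, and 0 in the other 6 comparisons. There its shares of all genes were 0.967% and 0.258% for the genotype under standard and ketogenic diet, 0.0687% for the diet in wild type and 0.0401% for the interaction. They were 2.38% for the genotype and 2.47% for the diet when averaged. limma-voom called 0 members in all 7, where its shares of all genes were 0.00572% and 0.0114% for the genotype under standard and ketogenic diet, 0.893% for the diet in the knockout, 0.0114% for the diet in wild type and 0% for the interaction. When averaged, they were 0.109% for the genotype and 0.819% for the diet.

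**Figure D2:**
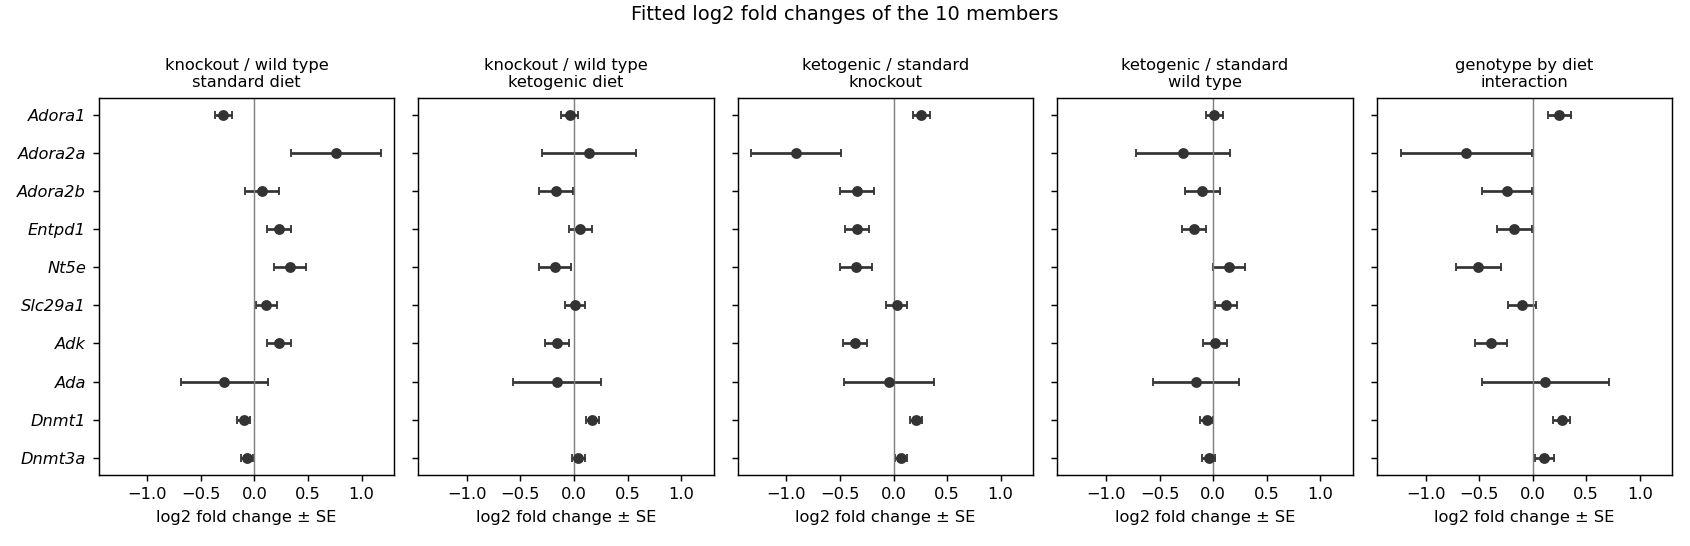
Fitted log2 fold change of each member with its standard error, in 5 comparisons over 16 libraries. The diet in the knockout shows the most members away from 0, with Adora1 at 0.26 and Dnmt1 at 0.21 above it and Adk at -0.36, Nt5e at -0.35 and Entpd1 and Adora2b at -0.34 below it. Adora2a lies lowest at -0.91, with 0.42 as its standard error, and the diet in wild type shows Adora2a at -0.28 and the other 9 members within 0.18 of 0.

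Among the receptors, Adora1 was the abundant one and showed its lowest values in knockout mice under standard diet. There KC873RR held 197 CPM, KC872RL 214 CPM, KC893RL 216 CPM and KC888LL 270 CPM. In wild type under standard diet it measured 264, 264, 279 and 294 CPM. In wild type under ketogenic diet it measured 251, 269, 291 and 296 CPM. In the knockout under ketogenic diet it measured 254, 268, 273 and 280 CPM. Thus 3 knockout libraries under standard diet lay below all 13 others, and the fourth, KC888LL, whose Kcna1 lay between the genotypes, was inside the wild type range. The log2 fold change between knockout and wild type under standard diet was -0.29 ± 0.08 (SE), a mean of 224 against 275 CPM, with an adjusted p of 0.194 (edgeR). The diet effect within the knockout was 0.26 ± 0.08 (SE), from 224 ± 31.8 to 269 ± 10.7 CPM (SD, n = 4), with an adjusted p of 0.114 (edgeR). Both comparisons use the same knockout libraries under standard diet. On the ketogenic diet knockout and wild type differed by -0.04 ± 0.08 (SE; edgeR, adjusted p = 0.895), and the diet in wild type gave 0.01 ± 0.08 (SE; edgeR, adjusted p = 0.998). The interaction was 0.25 ± 0.11 (SE; edgeR, adjusted p = 0.654).

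Of the 18 alternatives, the one without KC888LL alone brought Adora1 past the threshold in these 2 comparisons. Without KC888LL the log2 fold change between knockout and wild type under standard diet was -0.40 with an adjusted p of 0.00271 (edgeR; range 0.00271 to 0.999 over 18 alternatives), and 5.73% of all genes were called in that fit. Without KC888LL the diet in the knockout gave 0.36 with an adjusted p of 0.00499 (edgeR; range 0.00499 to 0.867), where 6.18% of all genes were called. In the same fit Adora1 passed averaged over diets for the genotype and averaged over genotypes for the diet, where 4.96% and 2.58% of all genes were called. Without KC872RL and KC873RR, the 2 libraries with high microglial genes, the values were -0.18 and 0.14 (edgeR, adjusted p = 0.998 and 0.867). The listed CA3 pyramidal cell genes differed in the same direction as Adora1, with a sum of 399 to 500 CPM in the knockout under standard diet and 502 to 583 CPM under ketogenic diet. All 4 CA3 genes had fitted log2 fold changes above 0 with the diet in the knockout, with a median of 0.31 and 0 called, and all 4 lay below 0 between knockout and wild type under standard diet, with a median of -0.25. The CA1 list gave 0.32 for the diet, with 3 of 4 above 0, and -0.22 for the genotype, with 4 of 4 below 0, and 0 called in either. Its sum was 312, 355 and 358 CPM in the 3 libraries where Adora1 was low, 429 CPM in KC888LL and 344 to 558 CPM in the knockout under ketogenic diet. The 5 dentate granule cell genes gave 0.21 for the diet, with 4 above 0, and 0 for the genotype, with 2 above 0. The part of these cell types in the Adora1 values was not tested. Of the exon length of Adora1, 20.1% is shared with Mybph on the opposite strand, and the use of strand in counting is not known. Mybph held 6 to 26 counts per library against 3384 to 6501 for Adora1.

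**Figure D3:**
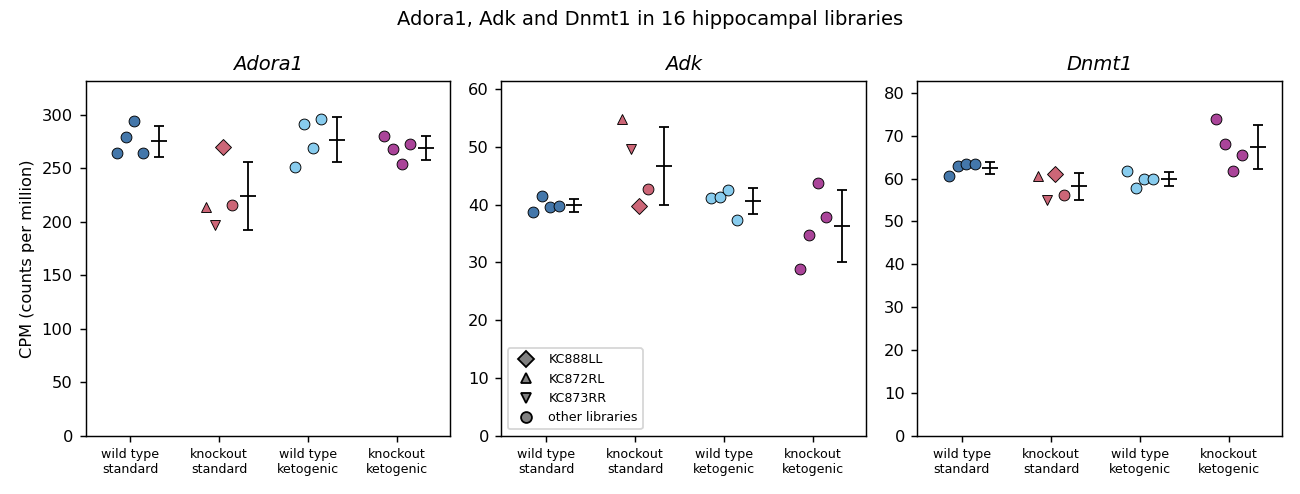
CPM of Adora1, Adk and Dnmt1 by group; each point is 1 mouse, and bars give the mean and SD of 4. Adora1 is between 197 and 216 CPM in 3 knockout libraries under standard diet, Adk is highest in KC872RL and KC873RR, and Dnmt1 does not overlap between the 2 diets in the knockout.

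Adora2a (ENSMUSG00000020178, chromosome 10, 75316877 to 75334784, plus strand) was scarce, at 8 to 37 counts in 15 libraries and 101 counts in KC888LL. In the knockout under standard diet it measured 5.46 CPM in KC888LL and 1.52, 1.65 and 1.76 CPM in the other 3. It measured 1.19 to 2.09 CPM in wild type under standard diet, 1.03 to 1.63 CPM in wild type under ketogenic diet, and 0.470, 1.40, 1.65 and 2.04 CPM in the knockout under ketogenic diet. Apart from KC888LL all groups overlapped. The log2 fold change between knockout and wild type under standard diet was 0.76 ± 0.42 (SE; edgeR, adjusted p = 0.425), and 0.09 without KC888LL. The diet effect within the knockout was -0.91 ± 0.42 (SE; edgeR, adjusted p = 0.286), and -0.24 without KC888LL. The 11 listed genes of the striatum, the best-known site of Adora2a, summed to 353 CPM in KC888LL against 314 to 523 CPM in the other libraries, with Drd2 at 4.87 CPM and Gpr6 at 0.703 CPM there. The 7 listed thalamic genes had their highest sum, 102 CPM, in KC888LL, against 32.3 to 92.6 CPM in the others. The part of neighbouring tissue in the Adora2a value was not tested.

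Adora2b (ENSMUSG00000018500, chromosome 11, 62248984 to 62266453, plus strand) lay between 3.35 and 5.43 CPM in the 16 libraries. It measured 4.33 ± 0.485 CPM in wild type libraries and 4.52 ± 0.707 CPM in knockout ones under standard diet, and 4.05 ± 0.722 and 3.58 ± 0.229 CPM under ketogenic diet (SD, n = 4). The groups overlapped in all 4 pairwise comparisons. The diet in the knockout gave -0.34 ± 0.16 (SE; edgeR, adjusted p = 0.294), and -0.17 without KC872RL and KC873RR. The 8 listed choroid plexus genes summed to 195 to 560 CPM in 3 of the 4 knockout libraries under standard diet and to 32.7 to 55.2 CPM in the knockout under ketogenic diet. Among wild type libraries they summed to 1080 CPM in KC894RLL, 1050 CPM in KC844RR and 287 CPM in KC897RR, where Adora2b measured 4.71, 5.13 and 4.73 CPM, and to 31.3 to 48.9 CPM in the other 5, where it measured 3.62 to 4.15 CPM. Their part in the Adora2b values was not tested. The remaining receptor gene, Adora3, which is no member, was near the floor at 0.378 to 1.75 CPM.

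The ectoenzyme genes that make extracellular adenosine both measured less in every knockout library under ketogenic diet than in any knockout library under standard diet. Entpd1 (ENSMUSG00000048120, chromosome 19, 40612366 to 40741602, plus strand) measured 10.4, 11.4, 11.5 and 13.9 CPM under standard diet and 8.67, 8.93, 9.61 and 10 CPM under ketogenic diet in the knockout. Its fitted difference was -0.34 ± 0.11 (SE; edgeR, adjusted p = 0.133), a difference of -21.2% that did not pass the threshold. Entpd1 gave -0.23 without KC872RL and KC873RR (edgeR, adjusted p = 0.853). In wild type it measured 8.97, 9.29, 10.6 and 11.4 CPM under standard diet and 8.29, 8.31, 9.49 and 9.60 CPM under ketogenic diet, which overlapped, with a difference of -0.18 ± 0.11 (SE; edgeR, adjusted p = 0.977). Averaged over genotypes the diet gave -0.26 ± 0.08 (SE; edgeR, adjusted p = 0.141).

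Nt5e (ENSMUSG00000032420, chromosome 9, 88327197 to 88372092, plus strand) measured 6.98, 7.29, 7.75 and 8.33 CPM in the knockout under standard diet and 5.49, 6.06, 6.08 and 6.17 CPM under ketogenic diet. The fitted difference was -0.35 ± 0.15 (SE; edgeR, adjusted p = 0.248), and -0.37 without KC872RL and KC873RR (edgeR, adjusted p = 0.85). Wild type libraries spread more widely, from 4.90 to 7.47 CPM under standard diet and from 5.24 to 8.33 CPM under ketogenic diet, so that both knockout groups lay within the range of 4.90 to 8.33 CPM that the wild type libraries spanned. The diet in wild type gave 0.15 ± 0.15 (SE; edgeR, adjusted p = 0.997), and the interaction was -0.51 ± 0.21 (SE; edgeR, adjusted p = 0.654). In all, 3 of the 10 members did not overlap between the diets in the knockout, Dnmt1 being the third, against 6.39% of all tested genes. In the other pairwise comparisons 0 members were without overlap, against 5.86% of genes for knockout against wild type under standard diet, 3.98% under ketogenic diet and 4.88% for the diet in wild type.

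**Figure D4:**
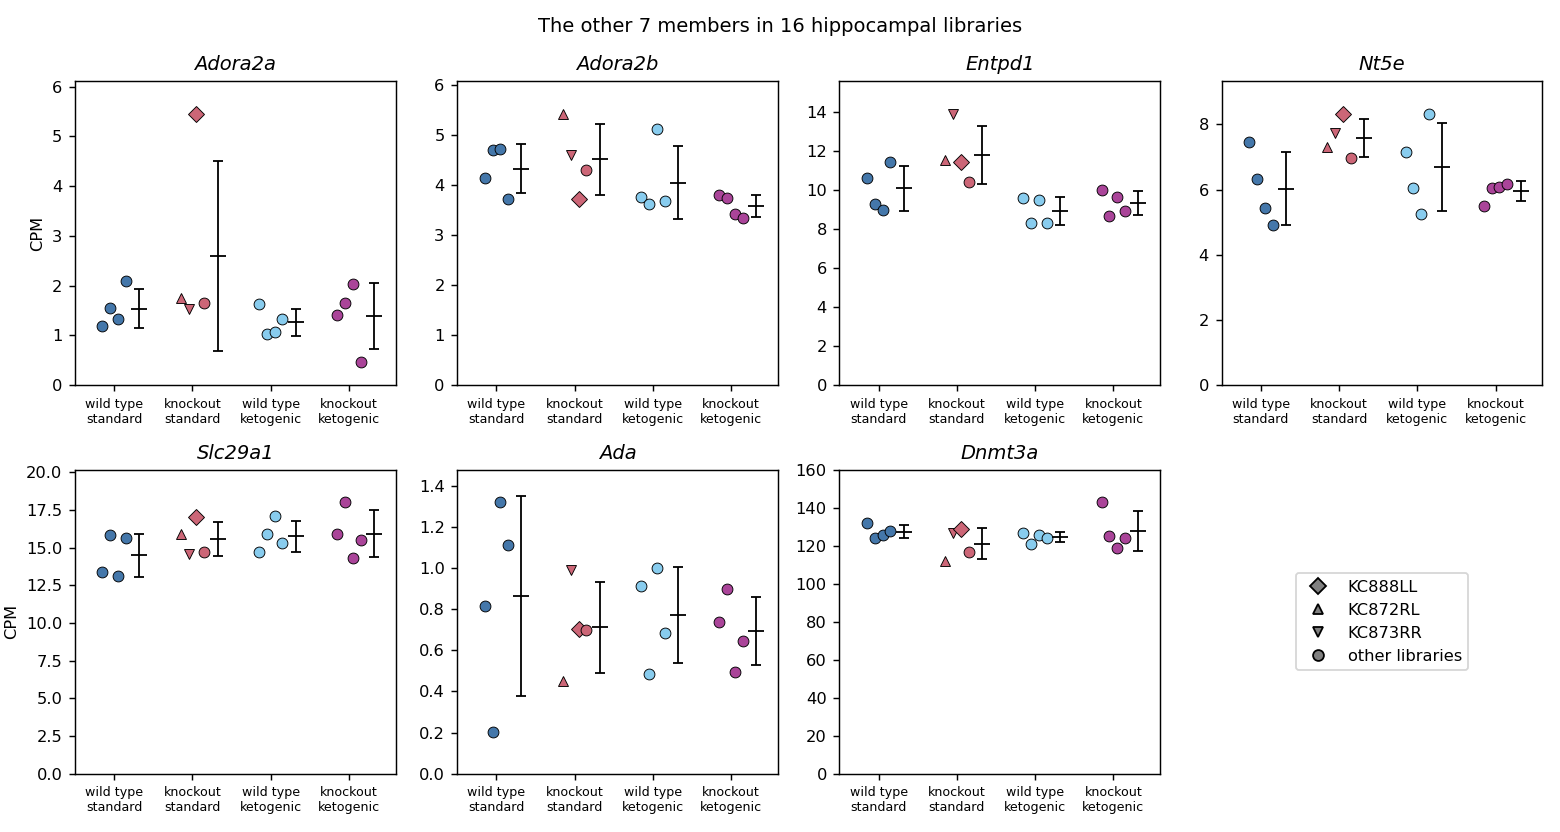
CPM of the other 7 members by group; each point is 1 mouse, and bars give the mean and SD of 4. Entpd1 and Nt5e do not overlap between the 2 knockout groups, and Adora2a has 1 library, KC888LL, at 5.46 CPM.

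The transporter gene Slc29a1 (ENSMUSG00000023942, chromosome 17, 45585200 to 45599606, minus strand) was among the steadiest members, with 13.1 to 18.0 CPM over all 16 libraries. Its group means were 14.5 ± 1.43 CPM in wild type libraries and 15.6 ± 1.16 CPM in knockout ones under standard diet, and 15.8 ± 1.03 and 15.9 ± 1.57 CPM under ketogenic diet (SD, n = 4). All groups overlapped. The fitted differences lay between 0.01 and 0.12 in the 4 pairwise comparisons, each with a standard error of 0.09 or 0.10 and an adjusted p of at least 0.652 (edgeR). With the antisense gene Gm17080 it shares 6.86% of its exon length.

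Adk (ENSMUSG00000039197, chromosome 14, 21052574 to 21448569, plus strand) had its 2 highest and its 2 lowest values in the knockout. On the standard diet its level was 54.8 CPM for KC872RL, 49.6 for KC873RR, 42.7 for KC893RL and 39.8 for KC888LL, all labelled knockout. On the ketogenic diet the knockout measured 28.8 CPM in KC913RR, 34.8 CPM in KC916RRL, 37.9 CPM in KC935LL and 43.8 CPM in KC934R. Wild type was narrow, at 38.8, 39.5, 39.7 and 41.5 CPM under standard diet and 37.3, 41.1, 41.3 and 42.5 CPM under ketogenic diet. The 2 knockout groups overlapped through KC934R alone. The diet in the knockout gave -0.36 ± 0.11 (SE; edgeR, adjusted p = 0.104), a difference of -22.2%, and in wild type 0.02 ± 0.11 (SE; edgeR, adjusted p = 0.998). The interaction was -0.39 ± 0.15 (SE; edgeR, adjusted p = 0.654). Knockout against wild type gave 0.23 ± 0.11 under standard diet and -0.16 ± 0.11 under ketogenic diet (SE; edgeR, adjusted p = 0.336 and 0.676). Without KC872RL and KC873RR the first of these was 0.05 (edgeR, adjusted p = 0.998).

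For Adk, the choice of tool as well as that of libraries moved the diet comparison in the knockout across the threshold. DESeq2 gave -0.36 with an adjusted p of 0.047. Without KC934R edgeR gave -0.46 with an adjusted p of 0.0395, where 1.08% of all genes were called, and without KC888LL -0.43 with an adjusted p of 0.0248. Without KC872RL and KC873RR it gave -0.18 with an adjusted p of 0.867, and the range over 18 alternatives was 0.0248 to 0.875. The 12 listed astrocyte genes summed to 4950 to 6030 CPM in the knockout under standard diet and 4700 to 5390 CPM under ketogenic diet, with 4 of 12 above 0 and 0 called. The 13 listed reactive astrocyte genes, 10 of them tested, summed to 2910 and 1660 CPM in KC872RL and KC873RR, but also to 2520 and 1300 CPM in KC913RR and KC934R, which held the lowest and the highest Adk value of the knockout under ketogenic diet. The microglial genes of KC872RL and KC873RR are given above. In the diet comparison of the knockout the 14 listed oligodendrocyte genes, of which 11 were called lower, summed to 5400 to 5980 CPM under standard diet and 2100 to 3930 CPM under ketogenic diet. The 6 listed blood genes, of which 5 were tested and 4 called lower, summed to 65.8 to 113 CPM and 17.7 to 32.5 CPM. The part of these cell types in the values of Adk, Entpd1 and Nt5e was not tested.

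**Figure D5:**
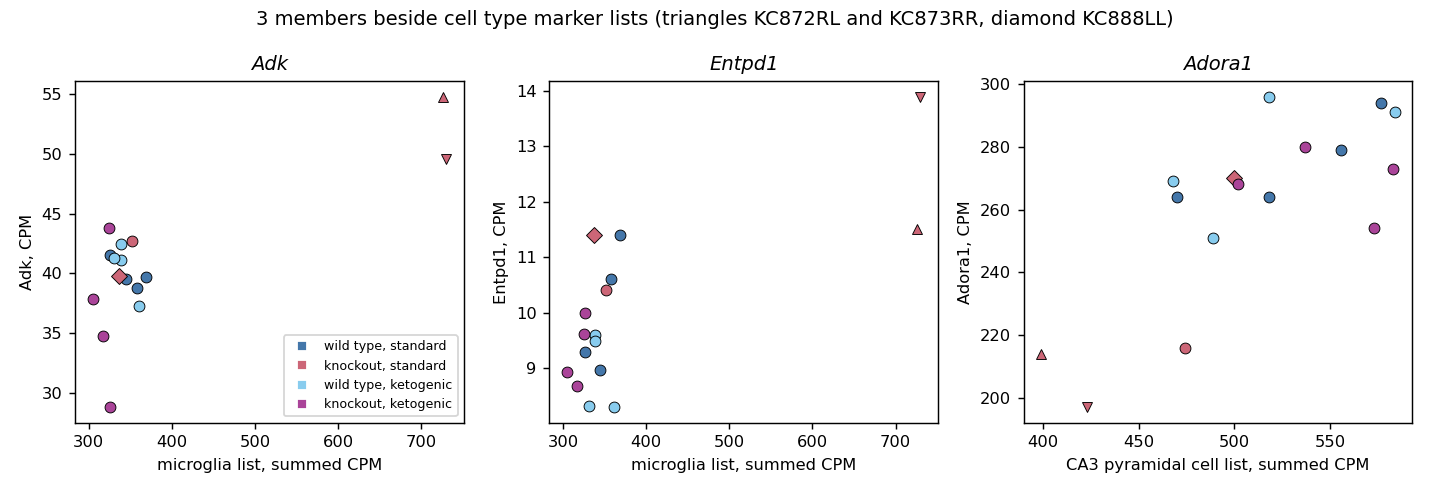
Adk and Entpd1 against the summed CPM of 16 microglial genes, and Adora1 against that of 4 CA3 pyramidal cell genes, 1 point per library. KC872RL and KC873RR (triangles) stand apart at 726 and 730 CPM of microglial genes and hold the 2 highest values of Adk and of Entpd1, and KC888LL (diamond) has Adora1 at 270 CPM, inside the wild type range.

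Ada (ENSMUSG00000017697, chromosome 2, 163726584 to 163750239, minus strand) measured 0.863 ± 0.487 CPM in wild type libraries and 0.711 ± 0.220 CPM in knockout ones under standard diet, and 0.771 ± 0.233 and 0.694 ± 0.167 CPM under ketogenic diet (SD, n = 4). Its lowest library, KC894RLL of wild type, held 3 counts. All groups overlapped, and standard errors of 0.40 to 0.42 in the pairwise comparisons mean that differences of the size seen for Adora1 or Adk were not detectable at this depth.

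Dnmt1 (ENSMUSG00000004099, chromosome 9, 20907209 to 20959888, minus strand) gave the smallest adjusted p of any member in the edgeR fit to all 16 libraries. In the knockout it measured 55.0, 56.1, 60.5 and 61.1 CPM under standard diet and 61.7, 65.5, 68.1 and 73.9 CPM under ketogenic diet. Every ketogenic library lay above every standard one, though the nearest pair, KC888LL and KC934R, differed by less than the SD within either group. The fitted difference was 0.21 ± 0.06 (SE), from 58.2 ± 3.08 to 67.3 ± 5.15 CPM (SD, n = 4), with an adjusted p of 0.087 (edgeR). In this comparison the oligodendrocyte list had a median of -0.85 with 11 of 14 called, the microglial list -0.82 with 1 of 16 called the CA1 list 0.32 and the CA3 list 0.31, each with 0 of 4 called, and their part in the Dnmt1 values was not tested. In wild type it measured 60.5, 62.9, 63.3 and 63.3 CPM under standard diet and 57.9, 59.8, 60.0 and 61.8 CPM under ketogenic diet. These overlapped, and the diet in wild type gave -0.06 ± 0.06 (SE; edgeR, adjusted p = 0.995). The interaction was 0.27 ± 0.08 (SE; edgeR, adjusted p = 0.654), and knockout against wild type under ketogenic diet was 0.17 ± 0.06 (SE; edgeR, adjusted p = 0.424). For the diet in the knockout DESeq2 gave an adjusted p of 0.0305, and edgeR gave 0.0474 without KC934R and 0.0311 without KC888LL. Over 18 alternatives the adjusted p ranged up to 0.775 while the fold change stayed between 0.16 and 0.25.

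Dnmt3a (ENSMUSG00000020661, chromosome 12, 3806007 to 3914443, plus strand) measured 128 ± 3.56 CPM in wild type libraries and 121 ± 8.24 CPM in knockout ones under standard diet, and 125 ± 2.45 and 128 ± 10.7 CPM under ketogenic diet (SD, n = 4). The lowest library was KC872RL at 112 CPM and the highest KC913RR at 143 CPM, both knockout. The 4 pairwise differences lay between -0.07 and 0.07, each with a standard error of 0.06, and all groups overlapped. The smallest adjusted p among them was 0.575 (edgeR).

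The other genes of these pathways were read from 4 lists, chosen with earlier results of these data known. With all 16 libraries 0 genes of the 4 lists were called in any of the 7 comparisons (edgeR). Of 43 other genes of adenosine and purine handling, 36 were tested. With the diet in the knockout 5 had an unadjusted p under 0.05 above 0 and 5 below, against 16.9% of all genes in either direction, with a median log2 fold change of -0.01 against 0.0069 over all genes. Slc29a3, an intracellular nucleoside transporter, measured 17.0 to 24.4 CPM in the knockout under standard diet and 14.7 to 17.1 CPM under ketogenic diet, a difference of -0.37 ± 0.11 (SE; edgeR, adjusted p = 0.0968). Under standard diet its high values were 22.7 CPM in KC872RL and 24.4 CPM in KC873RR, the libraries with high microglial genes. KC888LL and KC893RL held 17.0 and 18.0 CPM, against 16.8 to 18.4 CPM in wild type under that diet. Ak4, a mitochondrial adenylate kinase, measured 98.4 ± 8.68 CPM in wild type libraries and 74.0 ± 13.8 CPM in knockout ones under standard diet (SD, n = 4). The difference was -0.41 ± 0.12 (SE; edgeR, adjusted p = 0.202). KC888LL held 94.1 CPM of Ak4, inside the wild type range of 87.1 to 108 CPM under that diet. KC872RL, KC873RR and KC893RL held 63.3, 67.0 and 71.4 CPM. Enpp1, an ectonucleotidase, differed by -0.46 ± 0.14 (SE; edgeR, adjusted p = 0.144) with the diet averaged over genotypes. Ahcy, which splits S-adenosylhomocysteine, lay between 11.5 and 14.3 CPM in all 16 libraries.

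Of 14 P2X and P2Y receptors, which bind ATP, ADP or uridine nucleotides, 12 were tested. All 12 had a fitted difference above 0 between knockout and wild type under standard diet, against 51.1% of all genes, with a median of 0.32 against 0.0044 over all genes. In the same comparison 16 of 16 microglial genes lay above 0, with a median of 0.69 and 0 called. With the diet in the knockout 3 of the 12 receptors had an unadjusted p under 0.05, against 16.9% of all genes, and 2 did not overlap, against 6.39%, each lower. P2ry12 marks microglia and is also in the microglial list. It measured 32.1 to 59.5 CPM in the knockout under standard diet and 23.5 to 30.4 CPM under ketogenic diet. The difference was -0.77 ± 0.18 (SE; edgeR, adjusted p = 0.0535). Its high values under standard diet were 59.5 CPM in KC872RL and 57.3 CPM in KC873RR, the libraries with high microglial genes. KC888LL and KC893RL held 32.1 and 34.1 CPM, against 30.7 to 37.0 CPM in wild type under that diet. P2ry13, another ADP receptor, gave -0.61 ± 0.15 (SE; edgeR, adjusted p = 0.0617). Under standard diet it measured 16.2 and 13.4 CPM in KC872RL and KC873RR. KC888LL and KC893RL held 9.79 and 9.32 CPM of P2ry13, against 8.28 to 10.6 CPM in wild type. P2ry6, a receptor for UDP, gave 0.58 ± 0.18 (SE; edgeR, adjusted p = 0.140) for the genotype averaged over diets. The microglial list itself lay at a median of -0.82 for the diet effect in knockout mice, with 16 of 16 below 0 and 1 called, and its part in these receptor values was not tested.

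Of the 17 effectors of adenosine receptors, namely G protein subunits, adenylyl cyclases, protein kinase A subunits and GIRK potassium channels, all were tested and the median lay between -0.04 and 0.02 in the 7 comparisons. Prkacb, a catalytic subunit of protein kinase A, differed by 0.24 ± 0.06 (SE; edgeR, adjusted p = 0.101) between knockout and wild type averaged over diets. With the diet in the knockout Adcy9, an adenylyl cyclase, differed by 0.27 ± 0.08 and Kcnj6, a GIRK subunit through which the A1 receptor can hyperpolarise neurons, by 0.26 ± 0.08 (SE; edgeR, adjusted p = 0.113 and 0.122). Kcnj6 measured 56.2 to 70.0 CPM under standard diet and 71.3 to 76.3 CPM under ketogenic diet in the knockout, without overlap. This held for 1 of the 17 effectors and for 6.39% of all tested genes. Wild type measured 64.0 to 79.1 CPM under standard diet and 64.3 to 78.0 CPM under ketogenic diet. The knockout libraries under ketogenic diet lay within both of these ranges.

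Of 24 other genes of DNA methylation, 23 were tested, and the median lay between -0.05 and 0.02 in the 7 comparisons. Tet1, which oxidises methylcytosine, measured 19.9 ± 3.09 CPM in wild type libraries and 15.3 ± 1.68 CPM in knockout ones under standard diet (SD, n = 4), a difference of -0.37 ± 0.13 (SE; edgeR, adjusted p = 0.227). Mat2a, which makes the methyl donor S-adenosylmethionine, differed by -0.20 ± 0.06 (SE; edgeR, adjusted p = 0.404) between knockout and wild type under ketogenic diet. Gadd45a, a gene linked to demethylation, differed by 0.42 ± 0.16 (SE; edgeR, adjusted p = 0.216) for the genotype averaged over diets. Dnmt3b, the other de novo methyltransferase, was scarce at 0.825 to 2.62 CPM, and Uhrf1, the partner of Dnmt1 in maintenance, lay between 0.470 and 4.43 CPM.

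Genes of like pattern were sought for each member among the 15420 or 15421 other tested genes with a mean of at least 1 CPM. Likeness was Pearson's r of log2 CPM over the 16 libraries, which share their groups and the unequal libraries named above, so that the values are descriptions. The 2 nearest to Adora1 were Wscd2 at 0.95 and Cacng8 at 0.94, and they remained at 0.91 and 0.87 when group means were subtracted. The nearest to Adk were Fam234a at 0.95 and Gm37397 at 0.94, to Dnmt1 Smc1a at 0.88 and Zscan22 at 0.85, and to Dnmt3a Tpm3 at 0.89 and Zfp704 at 0.88. Entpd1 was nearest to Fmnl3 at 0.89 and Kctd16 at 0.84, Nt5e to Gpr137c at 0.86 and Mia2 at 0.80, and Adora2b to Mfrp at 0.88 and Cdr2 at 0.87. The lowest values belonged to Slc29a1, nearest to Ybx3 at 0.77 and Zfp551 at 0.75, and to the 2 scarce genes. Ada was nearest to Gm29367 at 0.83 and Timm50 at 0.77, and Adora2a to Gm13127 at 0.73 and Ggn at 0.71. Spearman's rho, which uses ranks, was 0.42 for Adora2a with Gm13127 and 0.59 for Dnmt3a with Tpm3. It was above r for Entpd1 with Kctd16, at 0.91, and for Nt5e with Gpr137c and Mia2, at 0.88 and 0.81.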

How the data were processed

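Total RNA of the hippocampus of 16 mice was sequenced. The authors deposited raw counts per gene, and the submitters' processing notes name mm10 and DESeq2 without saying how DESeq2 was used. The aligner, the counting program, the annotation and the strand setting are not given in the sources used here. The columns carry an animal tag, genotype and diet but no replicate number, so each was assigned to its group only. Nothing states that animals were independent beyond their tags, so p-values measure the spread between these libraries.

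Counts were analysed with edgeR 4.0.16 in R 4.3.3. filterByExpr left 17469 of 49315 genes, TMM factors were computed, and a robust quasi-likelihood model with a coefficient for each of the 4 groups took in all libraries, leaving 12 residual degrees of freedom. Two-sided p-values received a Benjamini-Hochberg adjustment across the tested genes. Standard errors come from the F statistic. Positions and exon lengths are from GENCODE M21 on GRCm38, and upstream sequences from the RefSeq table for GRCm38.p6. In simulated data with 200 genes changed in the knockout, 196 were recovered for knockout against wild type under standard diet among 17290 genes, with 6 others called. Recovery at the fold changes and counts of the members was not tested.

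The members, lists and tests were chosen with earlier results of these data known. Members are named whatever their values. Of the other lists, called genes and otherwise the 3 of smallest p were named, and the 2 of likest pattern per member. Other genes, namely Adora3, Ahcy, Dnmt3b, Uhrf1 and Mybph, were named after their values were seen. The alternatives tried were DESeq2 1.42.0, limma-voom (limma 3.58.1), edgeR with upper-quartile or DESeq2 size factors, without the filter, without robust estimation, on the compared groups alone or with Xist as a covariate, and omission of each library in turn. The fits without KC872RL and KC873RR, and without the libraries with Ddx3y at 10 CPM or more, were added after seeing the data.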

Additional observations from a re-analysis of the deposited data

Results flagged for a closer look

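In 4 of the 40 sets of 4 libraries examined (10 members in 4 groups), the highest or lowest library lay apart from the other 3 by more than the critical value of Dixon's ratio for 4 values. Chance flags about 1 in 20 such sets. Adora2a measured 5.46 CPM in KC888LL, against 1.76 CPM in the nearest library of the knockout under standard diet. Adora2b measured 5.13 CPM in KC844RR of wild type under ketogenic diet, against 3.76 CPM in the nearest. Nt5e measured 5.49 CPM in KC913RR of the knockout under ketogenic diet, against 6.06 CPM in the nearest. Dnmt1 measured 60.5 CPM in KC890RL of wild type under standard diet, against 62.9 CPM in the nearest. No cause was tested for any of the 4.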

How the results depend on the processing

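No paired analysis was possible because the columns of the count table carry no replicate number. The number of members called with all libraries was 0 in each comparison. It was 2 for the diet in the knockout with DESeq2, which called 3.88% of all genes. Over the fits that left out 1 library it ranged from 0 to 3 for the diet in the knockout, with 3 without KC888LL (6.18% of all genes) and 2 without KC934R (1.08%). It ranged from 0 to 1 for knockout against wild type under standard diet, and for the genotype and the diet each averaged over the other factor, with 1 (Adora1) without KC888LL, where 5.73%, 4.96% and 2.58% of all genes were called. In the interaction, the diet in wild type and knockout against wild type under ketogenic diet it was 0 in every alternative run. The cause of these changes was not tested.

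Signs turned for 7 members, none of them called in the comparison concerned. For knockout against wild type under standard diet Adora2b gave -0.11 without KC872RL and KC873RR and -0.13 without the libraries with Ddx3y. On the ketogenic diet Adora2a gave -0.03 with limma-voom and -0.05 with Xist as a covariate, and Slc29a1 gave -0.01 with Xist as a covariate. For the diet in the knockout Slc29a1 gave -0.01 with Xist as a covariate. For the diet in wild type Adora1 gave -0.05 without the libraries with Ddx3y, and Ada gave 0.04 with limma-voom. For the interaction Ada gave -0.05 with limma-voom. Averaged over diets, Adk gave -0.05 without KC872RL and KC873RR and -0.08 without the libraries with Ddx3y, and averaged over genotypes Ada gave 0.01 with limma-voom.
Over the fits without 1 library, the lowest and highest values of results whose sign turned were as follows. For knockout against wild type they were -0.04 and 0.14 for Adora2b under standard diet, and under ketogenic diet -0.14 and 0.44 for Adora2a, -0.05 and 0.06 for Slc29a1, and -0.02 and 0.07 for Dnmt3a. For the diet they were -0.03 and 0.08 for Slc29a1 and -0.22 and 0.16 for Ada in the knockout, and -0.03 and 0.05 for Adora1 and -0.49 and 0.10 for Ada in wild type. For the interaction they were -0.89 and 0.04 for Adora2a and -0.15 and 0.44 for Ada. Averaged over diets they were -0.10 and 0.01 for Adora2b and -0.02 and 0.09 for Adk, and averaged over genotypes -0.27 and 0.03 for Ada and -0.01 and 0.04 for Dnmt3a. The causes were not tested.
The rank of level per kb was kept by 10 members with CPM by total count and by 6 with the longest transcript. Depth limits Ada and Adora2a, which held under 40 counts in all libraries but 1.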
